A study of Mus musculus with 12 samples.

Results

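Of the 46078 genes counted in mouse hematopoietic stem and progenitor cells, 8 genes known from monocytes and dendritic cells were examined: *Itgam*, *Fcgr3*, *Clec12a*, *Siglech*, *Cd52*, *Lgals3*, *F13a1* and *Mpeg1*. They were found by gene symbol through the Ensembl identifiers of the count table, and each was present in it. *Itgam*, *Fcgr3*, *Clec12a*, *Siglech* and *Cd52* encode proteins on the cell surface. *Lgals3* and *F13a1* encode proteins of the cytosol and the extracellular space, and *Mpeg1* encodes a protein of phagosomes, so that the name of surface genes holds for the first 5 alone.

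The RNA sequencing asked how knockdown of *Rad21*, which encodes a subunit of the cohesin ring that folds chromatin into loops, changed gene expression in stem and progenitor cells under stress. It comprised 12 libraries of C57BL/6 cells, with 3 libraries in each of 4 groups. LSK cells (lineage negative, Sca-1 and c-Kit positive bone marrow cells) were infected with a lentivirus that carried EGFP and an shRNA against luciferase (shLuci, the control) or against *Rad21* (shRad21). For the culture groups, the cells were kept for 3 days in serum-free medium with thrombopoietin and stem cell factor, and GFP+CD48-Sca-1+ cells were sorted. For the in vivo groups, infected LSK cells were transplanted into lethally irradiated mice, and GFP+ LSK cells were sorted again 3 months later per the labels, while the study's methods give a longer interval. All groups thus carried an integrated lentivirus, and no group was left uninfected. The ages of donors and recipients behind these libraries, and whether replicates came from separate mice, were not given in the sources used here, so that p-values measure only the spread between these libraries. The culture and in vivo libraries also differed in the sorted population, in the library kit (TruSeq RNA v2 against SMART-Seq v4 with Nextera XT) and in the sequencing lane, which cannot be told apart from the setting itself. An antibody against CD11b, the product of *Itgam*, was part of the lineage cocktail that defined LSK cells, whereas the sort of cultured cells named GFP, CD48 and Sca-1.

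Library totals ran from 15235129 to 29846689 counted reads, so that 3 counts, used as the limit of detection, amounted to 0.101 to 0.197 CPM (counts scaled to a library of 1000000 reads). These limits cover counting error only. *Rad21* itself was left at 34.7% of the control mean in culture and at 36.8% in vivo, and was lower in every shRad21 library than in every shLuci library of its setting. *Kit*, the gene of c-Kit, had between 266 and 976 CPM and *Ly6a*, the gene of Sca-1, between 85.8 and 272 CPM in the 12 libraries. *Cd48* had between 29.4 and 50.2 CPM in the culture libraries, which were sorted as CD48-, and between 137 and 302 CPM in vivo.

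The 8 genes cover several tasks of phagocytes. *Itgam* (CD11b) pairs with the beta-2 chain *Itgb2* to form complement receptor 3, which binds complement-coated particles and ligands on the vessel wall, and *Fcgr3* (Fc gamma receptor III) binds immune complexes and signals through the adaptor chain *Fcer1g*. *Clec12a* is an inhibitory C-type lectin that dampens myeloid activation through the phosphatase *Ptpn6*. *Siglech* is a member of the Siglec family that marks mouse plasmacytoid dendritic cells and signals through the adaptor *Tyrobp*. *Cd52* is a short lipid-anchored glycoprotein of lymphocytes and monocytes, *Lgals3* (galectin-3) binds galactosides, *F13a1* is the catalytic chain of the transglutaminase that cross-links fibrin, and *Mpeg1* (perforin-2) belongs to the pore-forming proteins that act on engulfed bacteria.

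In GRCm38, *Itgam* lies on the plus strand of chromosome 7 from 128062640 to 128118491 and *Siglech* on the plus strand of chromosome 7 from 55768178 to 55778925. *Clec12a* lies on the plus strand of chromosome 6 from 129342691 to 129365303. *Fcgr3* lies on the minus strand of chromosome 1 from 171051174 to 171064935, and *Cd52* on the minus strand of chromosome 4 from 134082448 to 134095082. *Lgals3* lies on the plus strand of chromosome 14 from 47367751 to 47386160. *F13a1* lies on the minus strand of chromosome 13 from 36867178 to 37050244, and *Mpeg1* on the plus strand of chromosome 19 from 12460779 to 12465283. Among genes in the count table, *Cd52* was the one member that shared exonic bases, 14.5% of them with *Crybg2* on the opposite strand. The strand setting of the counting was not given in the sources used here, so that reads of both genes may be mixed there. The same limit holds for other genes named below that shared a larger part with counted genes: *Ms4a6c* (53.1%), *Tgm2* (21.8%), *Ccr9* (21.5%) and *Csf1r* (15.1%). Of the exonic bases of *Itgam*, 68.7% are also annotated for the same-strand gene *Gm49368*, which was not in the count table. *Fcgr3* and *Fcgr2b* are close paralogs, and reads from their near-identical stretches are uncertain.

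Because several of the members moved together, the stretches before their start sites were examined. RefSeq promoter windows of GRCm38.p6, with 250 bases before and 50 from the start, were found for 7 of the 8 genes. The upstream stretches outside annotated exons are shown for *Itgam* (chr7:128062390-128062639, plus strand), for the first of the start sites of *F13a1* (chr13:37050245-37050494, minus strand) and for *Mpeg1* (chr19:12460520-12460769, plus strand), as 3 genes called lower in shRad21 cells in culture, and for the first start site of *Fcgr3* (chr1:171059404-171059626, minus strand), as a gene with motif matches. Each is written 5′ to 3′ on the strand of its gene, and capitals mark matches to the motifs searched.
Itgam: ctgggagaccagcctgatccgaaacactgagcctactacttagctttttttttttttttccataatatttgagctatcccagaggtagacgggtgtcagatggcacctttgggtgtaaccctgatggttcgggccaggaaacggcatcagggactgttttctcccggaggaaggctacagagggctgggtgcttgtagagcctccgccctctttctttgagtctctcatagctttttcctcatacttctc
F13a1: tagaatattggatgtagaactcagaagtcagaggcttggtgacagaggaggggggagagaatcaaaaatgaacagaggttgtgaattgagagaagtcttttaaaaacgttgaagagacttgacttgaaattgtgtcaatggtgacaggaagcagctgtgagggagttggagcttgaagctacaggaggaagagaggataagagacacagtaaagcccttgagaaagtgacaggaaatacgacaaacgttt
Mpeg1: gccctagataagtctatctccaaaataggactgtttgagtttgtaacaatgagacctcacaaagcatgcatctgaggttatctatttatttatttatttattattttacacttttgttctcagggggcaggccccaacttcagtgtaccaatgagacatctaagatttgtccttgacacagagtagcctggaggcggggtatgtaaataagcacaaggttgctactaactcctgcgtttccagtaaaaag
Fcgr3: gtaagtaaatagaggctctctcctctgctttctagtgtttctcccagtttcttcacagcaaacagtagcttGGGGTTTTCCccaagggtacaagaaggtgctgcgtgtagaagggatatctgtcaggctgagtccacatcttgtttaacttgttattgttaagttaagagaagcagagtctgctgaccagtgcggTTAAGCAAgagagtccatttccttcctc
The motifs searched on both strands were the PU.1 box GAGGAAGT, the C/EBP motif TTNNGCAA, the ETS-IRF composite, the interferon-stimulated response element, the RUNX motif TGTGGT, the AP-1 motif TGANTCA, the NF-κB consensus and the CTCF core. In the *Fcgr3* stretch, the capitals mark the NF-κB consensus match GGGGTTTTCC from 152 to 143 bases before the start and the C/EBP match TTAAGCAA from 28 to 21 bases before it. This start, at 171059403, lies inside the annotated *Fcgr3* gene, so that these matches are not upstream of the whole gene. Of the 250 bases before it, 27 are in annotated exons. Among all 32851 windows, 4.51% held the NF-κB consensus and 10.8% held the C/EBP motif. The *Clec12a* window held a C/EBP, a RUNX and an AP-1 match, which occurred in 10.8%, 16.8% and 7.81% of all windows, respectively. Its start site, at 129350244, lies inside the annotated gene, and all 250 bases before it are in annotated exons, these matches included. The start of *Lgals3* (47373860) and the second start of *F13a1* (37049213) also lie inside their annotated genes. *Siglech* held a C/EBP and a RUNX match, and the second start site of *F13a1* held the PU.1 box GAGGAAGT from base 15 to base 22 after the start, a motif found in 3.20% of all windows. The windows of *Itgam*, *Mpeg1* and *Lgals3* and the first window of *F13a1* held none of the 8 motifs. The ETS-IRF composite, the interferon-stimulated response element and the CTCF core, found in 2.72%, 3.44% and 1.15% of all windows, were in none of the members' windows. A match describes these letters only.

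In culture, 5 of the 8 genes fell with *Rad21* knockdown: *Itgam*, *Clec12a*, *Cd52*, *F13a1* and *Mpeg1*. *Cd52* had the largest fold change of the 7 members that could be tested, an 8.18-fold lower expression in shRad21 cells. *Fcgr3* and *Lgals3* overlapped between the groups and were not called in this test, which left the replicate number out. With that number as a block, both were called lower as well. *Siglech* had too few counts for a test. Genes were called at an adjusted p under 0.05 in the quasi-likelihood F test of edgeR, with p values adjusted by the Benjamini-Hochberg method over all genes tested. By this rule, 8.06% of the 15543 genes tested in culture were called lower. The members that were tested had a median log2 fold change of -1.63, against -0.0039 for all genes tested. The members were chosen with earlier results of these data known, so that contrasts with all genes, here and below, describe them and are no test. In these bulk samples, fewer cells that express a gene and less RNA of it per cell cannot be told apart.

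The integrin chain *Itgam* had 22.1, 45.8 and 28.9 CPM in the shLuci libraries 1 to 3 and 5.40, 10.3 and 11.2 CPM in the shRad21 libraries. The lowest control library was thus above the highest knockdown library. Its log2 fold change (with its standard error, SE) was -1.84 (SE 0.289, adjusted p = 0.00178 in edgeR), and the call held with each library left out. The Fc receptor *Fcgr3* had 3.30, 5.96 and 5.89 CPM in shLuci and 1.24, 1.82 and 4.63 CPM in shRad21 cells. The third knockdown library lay within the range of the controls. Its log2 fold change of -0.96 (SE 0.407) did not pass the test (adjusted p = 0.158 in edgeR). With single libraries left out, it was called in 1 of 6 runs. It was -1.73 (adjusted p = 0.00670 in edgeR) without shRad21 replicate 3, but -0.61 (adjusted p = 0.358 in edgeR) without shRad21 replicate 1.

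The inhibitory lectin *Clec12a* had 24.8, 19.5 and 10.4 CPM in the shLuci libraries and 6.97, 7.12 and 3.49 CPM in the shRad21 libraries. Library 3 was the lowest of its group in both, and the groups did not overlap. The log2 fold change was -1.63 (SE 0.322, adjusted p = 0.00634 in edgeR). *Siglech* had 17, 9 and 6 counts in the shLuci libraries and 15, 4 and 3 counts in the shRad21 libraries, the last of which is at the limit of detection. These correspond to 1.19, 0.462 and 0.280 CPM and to 0.618, 0.202 and 0.107 CPM, respectively, with overlap between the groups.

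The glycoprotein gene *Cd52* had 31.9, 34.5 and 17.8 CPM in shLuci and 3.71, 3.99 and 2.60 CPM in shRad21 cells. Even the lowest control library was several fold above the highest knockdown library. This gave a log2 fold change of -3.03 (SE 0.257, adjusted p = 4.65e-05 in edgeR), which ranked 50 by p among the genes tested, and the call held with each library left out, as did that of *Clec12a*. *Lgals3* had 2.39, 6.26 and 4.20 CPM in shLuci and 1.24, 1.97 and 3.88 CPM in shRad21 cells, with overlap between the groups. Its log2 fold change was -0.85 (SE 0.405, adjusted p = 0.209 in edgeR), and it was called in 1 of 6 runs with a library left out. It was -1.43 (adjusted p = 0.0419 in edgeR) without shRad21 replicate 3, the same library that decided the call of *Fcgr3*. Without shLuci replicate 2 it was -0.48 (adjusted p = 0.585 in edgeR).

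The transglutaminase chain *F13a1* had 2.39, 11.7 and 3.69 CPM in the shLuci libraries and 0.577, 1.82 and 1.39 CPM in the shRad21 libraries. Control library 2 stood well above the other controls, and the groups did not overlap. The log2 fold change of -2.25 (SE 0.556, adjusted p = 0.0202 in edgeR) was -1.29 (adjusted p = 0.0906 in edgeR) without shLuci replicate 2 and -1.90 (adjusted p = 0.0648 in edgeR) without shRad21 replicate 1. The pore-forming *Mpeg1* had 6.74, 7.24 and 4.34 CPM in shLuci and 2.43, 2.98 and 1.10 CPM in shRad21 cells, again with library 3 lowest in both groups. The log2 fold change was -1.50 (SE 0.325, adjusted p = 0.0104 in edgeR), with an adjusted p of 0.0592 in edgeR without shLuci replicate 2. Without that library, 3 of the members were called.

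**Figure D1:**
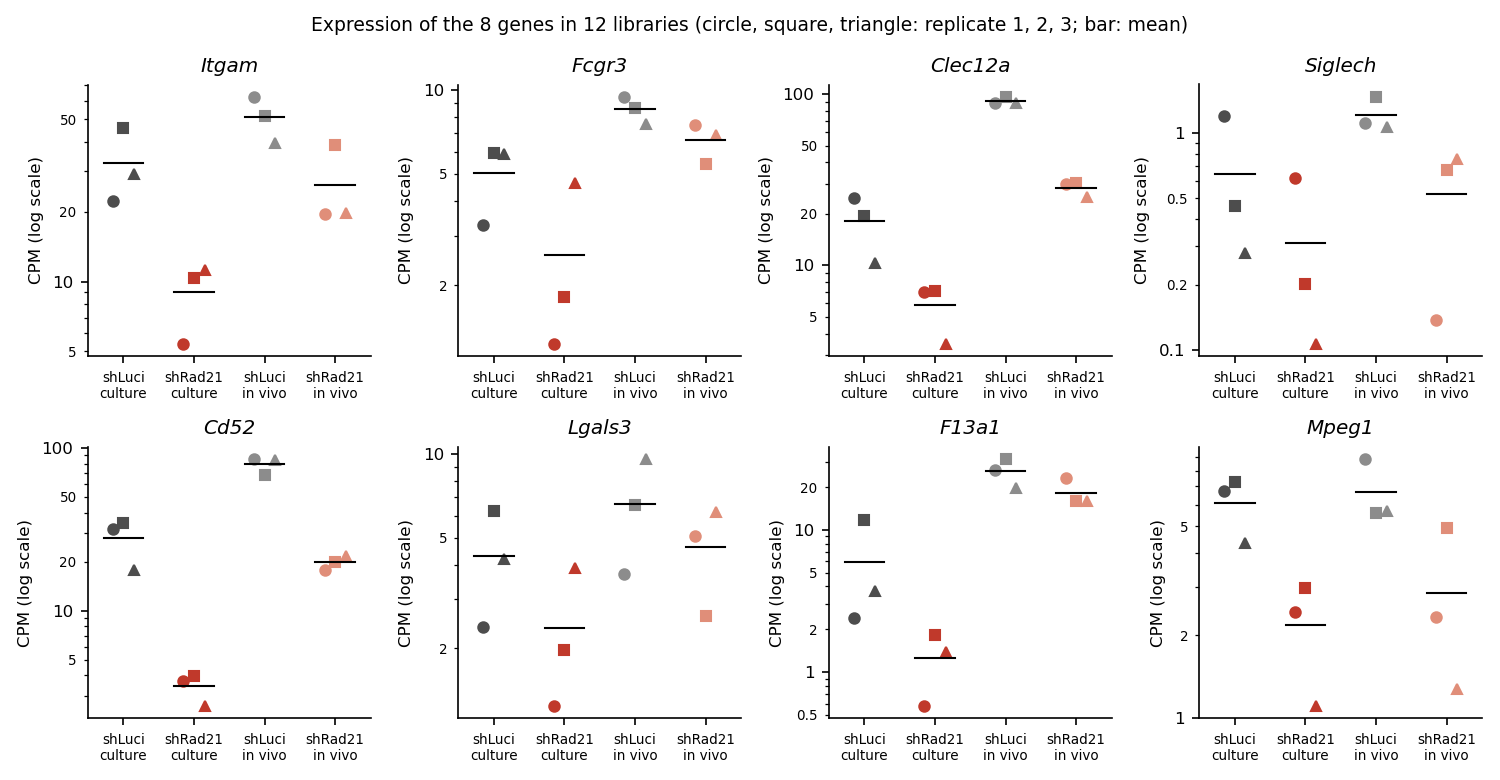
Expression of each of the 8 genes in CPM on a log scale, with 1 point per library (circle, square and triangle for replicates 1, 2 and 3) and the group mean as a bar. In culture, the shRad21 points of *Itgam*, *Clec12a*, *Cd52*, *F13a1* and *Mpeg1* lie below all shLuci points, and in vivo those of *Clec12a* and *Cd52* are the farthest apart, with 24.99 to 30.2 CPM against 88.3 to 96.3 CPM for *Clec12a*.

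Libraries with the same replicate number shared part of their deviation from the group means in culture, so the number was also used as a block. With the block, each of the 7 tested members was called lower, where 11.2% of all genes were. The block changed the call of *Fcgr3* (log2 fold change -1.03, adjusted p = 0.00386 in edgeR) and of *Lgals3* (log2 fold change -0.84, adjusted p = 0.0224 in edgeR). Their log2 fold changes moved little, while the standard errors fell from 0.407 to 0.235 for *Fcgr3* and from 0.405 to 0.250 for *Lgals3*. Both were also called without the block when no filter on counts was used. In that run, too, the standard errors of all 7 tested members were smaller, for *Itgam* 0.136 instead of 0.289. Within same-numbered pairs, shRad21 expression was lower than shLuci expression in 3 of 3 pairs for each of the 8 genes, *Siglech* included, which held for 25.3% of all genes tested in culture. *Cd52* was left at 11.6%, 11.6% and 14.6% of its same-numbered control, and *Clec12a* at 28.1%, 36.5% and 33.6%. *Fcgr3* was left at 37.5%, 30.5% and 78.6% and *Lgals3* at 51.8%, 31.5% and 92.3%, so that pair 3 differed least for both.

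**Figure D2:**
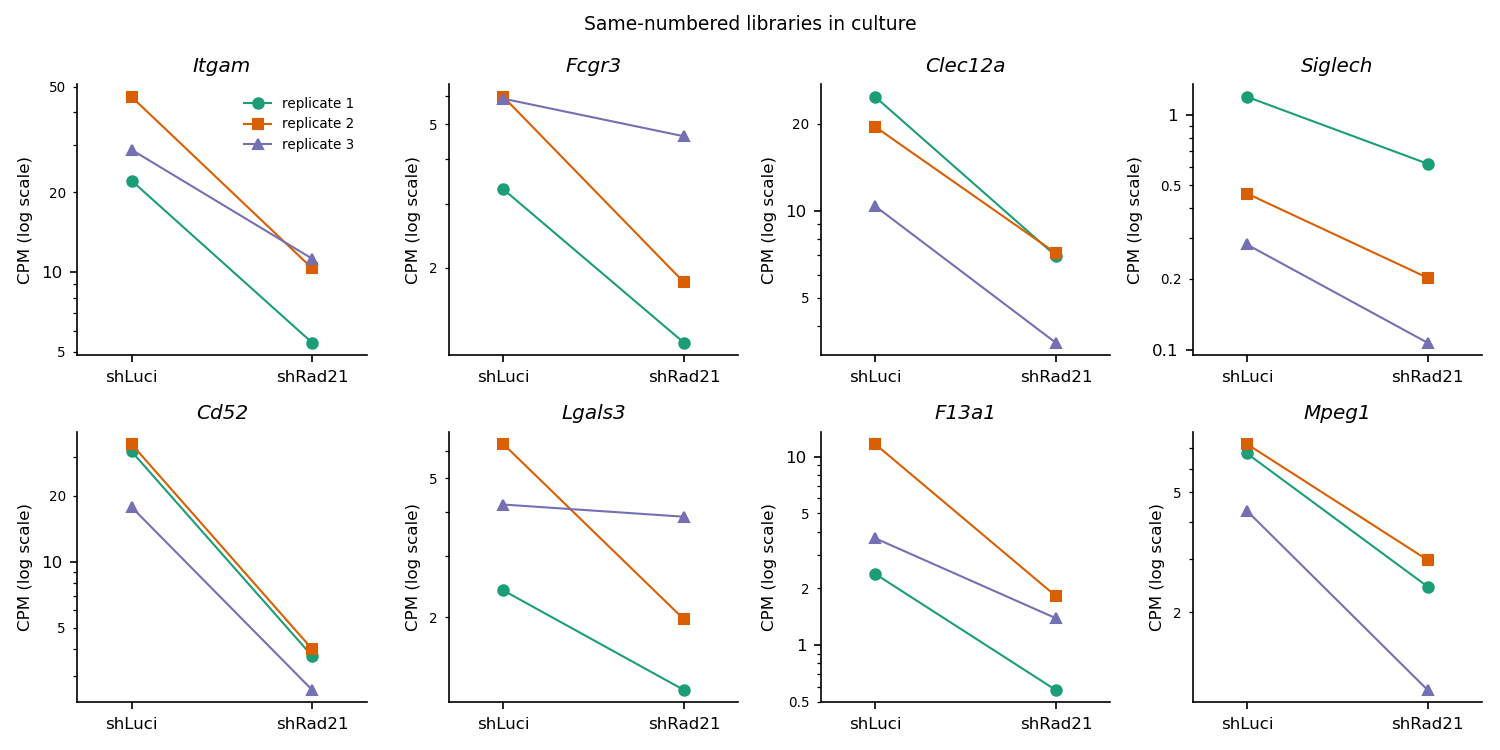
Expression of the 8 genes in CPM on a log scale in the culture libraries, with a line between the shLuci and the shRad21 library of the same replicate number. All lines fall from left to right, and those of replicate 3 are nearly flat for *Lgals3* (92.3% left) and shallow for *Fcgr3* (78.6% left).

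In vivo, 3 of the 8 genes fell with *Rad21* knockdown, namely *Clec12a*, *Cd52* and *Itgam*, while 5.32% of the 15938 genes tested were called lower. All 8 members could be tested, each with a log2 fold change below 0, and their median log2 fold change was -1.08, against -0.0019 for all genes. For 6 of the 8 genes all shRad21 libraries were below all shLuci libraries, which held for 15.8% of all genes tested. *Clec12a* and *Cd52* were among the 10 genes with the lowest p values of the whole table.

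*Clec12a* had 88.4, 96.3 and 88.3 CPM in the shLuci libraries and 30.0, 30.2 and 24.99 CPM in the shRad21 libraries. Replicates of each group lay close together, with a wide gap between the groups. The resulting log2 fold change was -1.66 (SE 0.0932, adjusted p = 1.79e-05 in edgeR). *Cd52* had 85.2, 68.4 and 84.2 CPM in shLuci and 17.8, 19.8 and 21.7 CPM in shRad21 cells. This was the largest fold change of the members in vivo as in culture, a 3.96-fold lower expression with a log2 fold change of -1.99 (SE 0.110, adjusted p = 1.79e-05 in edgeR). Both calls held with each library left out.

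*Itgam* had 62.3, 51.7 and 39.6 CPM in the shLuci libraries and 19.6, 38.5 and 19.6 CPM in the shRad21 libraries. Knockdown library 2 almost reached control library 3. The log2 fold change of -0.96 (SE 0.264) was just past the threshold (adjusted p = 0.0449 in edgeR), and the adjusted p was 0.131 and 0.107 without shLuci replicates 1 and 2, and 0.140 and 0.169 without shRad21 replicates 1 and 3. It was 0.0743 with DESeq2. *Mpeg1* had 8.81, 5.60 and 5.71 CPM in shLuci and 2.34, 4.94 and 1.27 CPM in shRad21 cells. Its groups did not overlap, but the log2 fold change of -1.21 (SE 0.418) did not pass the test (adjusted p = 0.103 in edgeR), which it did with DESeq2 (adjusted p = 0.0188) and in edgeR without shRad21 replicate 2 (log2 fold change -1.88, adjusted p = 0.0119).

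The other members were not called in vivo. *Siglech* had 25, 29 and 24 counts in the shLuci libraries and 3, 15 and 16 counts in the shRad21 libraries, or 1.06 to 1.46 CPM against 0.137 to 0.753 CPM, without overlap. Its log2 fold change was -1.19 with a large standard error of 0.533 (adjusted p = 0.209 in edgeR). *Fcgr3* had 9.43, 8.58 and 7.52 CPM in shLuci and 7.46, 5.44 and 6.92 CPM in shRad21 cells, so that the groups met at about the same level. Its log2 fold change was -0.35 (SE 0.175, adjusted p = 0.263 in edgeR). *F13a1* had 26.2, 31.5 and 19.6 CPM in shLuci and 23.1, 15.9 and 16.0 CPM in shRad21 cells, with overlap and a log2 fold change of -0.48 (SE 0.201, adjusted p = 0.179 in edgeR). *Lgals3* had 3.69, 6.56 and 9.60 CPM in shLuci and 5.08, 2.61 and 6.21 CPM in shRad21 cells, also with overlap (log2 fold change -0.50, SE 0.375, adjusted p = 0.478 in edgeR).

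**Figure D3:**
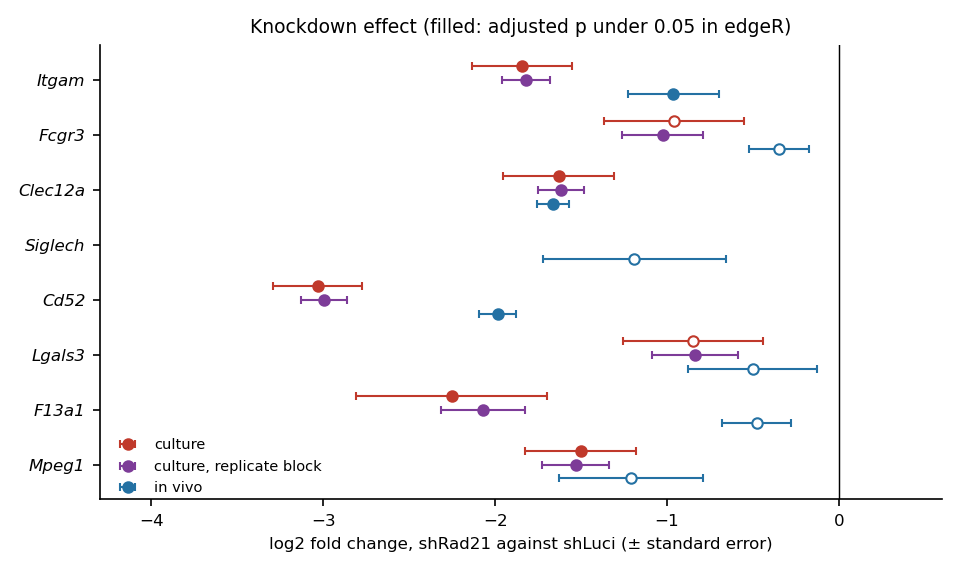
Log2 fold change of shRad21 against shLuci cells for each gene, with its standard error as a bar, in culture, in culture with the replicate number as a block, and in vivo. Filled points have an adjusted p under 0.05 in edgeR, all points lie below 0, and the *Clec12a* estimates of -1.63 in culture and -1.66 in vivo are the closest to each other.

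Whether knockdown acted differently on the members in culture and in vivo was tested as an interaction over all 12 libraries. edgeR called 0 of the 8 members, 2 had an unadjusted p under 0.05 (as had 17.7% of all genes), and DESeq2 called 1 member, *Cd52*, while edgeR called 4.67% of the 17050 genes tested. For *Cd52*, the log2 fold change in culture was lower than in vivo by a log2 difference of -1.04 (SE 0.303, adjusted p = 0.0670 in edgeR and 0.0106 in DESeq2), and without shLuci culture replicate 3 the difference was -1.29 (adjusted p = 0.00372 in edgeR). For *F13a1* the difference was -1.77 (SE 0.643, adjusted p = 0.150 in edgeR), and for *Itgam* -0.87 (SE 0.444, adjusted p = 0.337 in edgeR). *Clec12a* had a difference of 0.04 (SE 0.371, adjusted p = 0.983 in edgeR).

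Per exonic length, *Cd52* was the most highly expressed member in each of the 4 groups. It had 66.8 ± 7.93 RPKM (CPM per kilobase of merged exons, SD, n = 3) in shLuci cells in vivo, at the percentile 95.4 of expressed genes, and 23.7 ± 7.58 RPKM (SD, n = 3) in shLuci cells in culture, at the percentile 82.0. *Clec12a* and *Itgam* came next in shLuci cells in vivo with 16.5 ± 0.836 and 10.2 ± 2.26 RPKM (SD, n = 3), but their order was the other way round in culture, where *Clec12a* had 3.30 ± 1.32 and *Itgam* 6.42 ± 2.43 RPKM (SD, n = 3) with overlapping libraries. *Siglech* was the lowest member in all groups, with 0.358 ± 0.0646 RPKM (SD, n = 3) at most. *Fcgr3*, *F13a1*, *Lgals3* and *Mpeg1* lay between, with 4.90, 3.83, 3.56 and 1.55 RPKM as means in shLuci cells in vivo. The coefficient of variation between shLuci replicates reached 84.9% for *F13a1* in culture and was 5.08% for *Clec12a* in vivo.

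**Figure D4:**
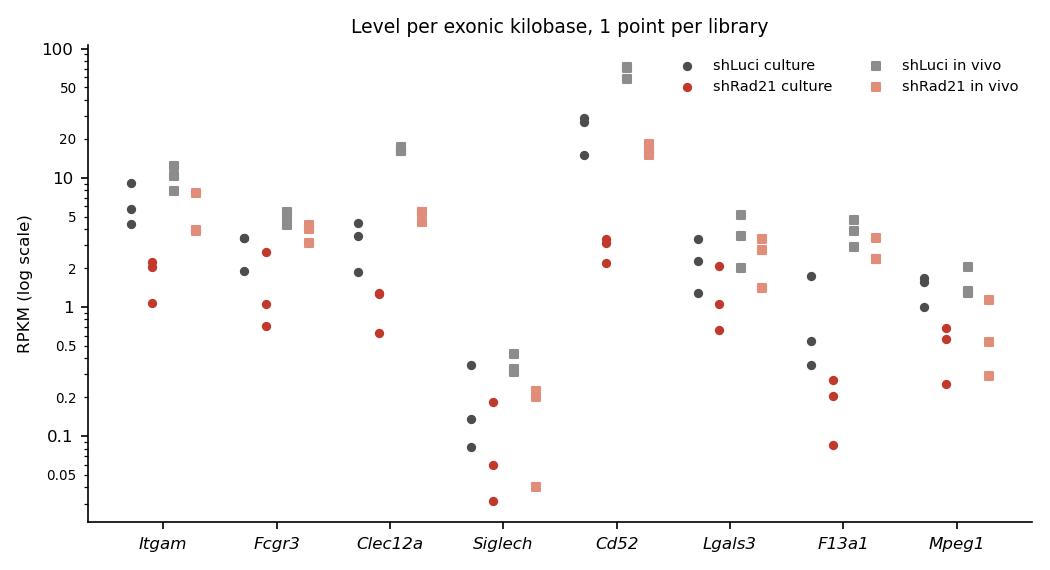
Expression of the 8 genes per exonic kilobase in RPKM on a log scale, with 1 point per library and circles for culture and squares for in vivo. *Cd52* is the highest gene, with a mean of 66.8 RPKM in shLuci cells in vivo, and *Siglech* the lowest, with a mean of 0.358 RPKM there.

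Across groups, the mean CPM was highest in shLuci cells in vivo and lowest in shRad21 cells in culture for each of the 8 genes. The share of all genes with this order was not counted, and kit, sorted population and lane cannot be told apart from the setting in it. For *Clec12a* the order was shLuci in vivo (91.0 CPM), shRad21 in vivo (28.4 CPM), shLuci culture (18.2 CPM) and shRad21 culture (5.86 CPM), and no neighbours in it overlapped. For *Cd52*, shLuci culture (28.1 CPM) and shRad21 in vivo (19.8 CPM) overlapped in the middle of the order, as they did for *Itgam* (32.3 and 25.9 CPM) and *Mpeg1* (6.11 and 2.85 CPM). *F13a1* had both in vivo groups, with 25.8 and 18.3 CPM, above both culture groups, with 5.91 and 1.26 CPM. No neighbours in the order were separate for *Siglech*, *Lgals3* and *Mpeg1*.

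Among control cells, 3 members were lower in culture than in vivo, namely *Clec12a* (log2 difference -2.34, SE 0.251, adjusted p = 7.64e-07 in edgeR), *F13a1* (-2.10, SE 0.424, adjusted p = 0.000389 in edgeR) and *Cd52* (-1.50, SE 0.195, adjusted p = 5.65e-06 in edgeR). In the same comparison, 74.2% of all 17050 genes were called, and 37.1% were called lower. *Itgam* and *Fcgr3* had log2 differences of -0.66 and -0.74 and adjusted p values of 0.0623 and 0.0691 in edgeR, and both were called with upper-quartile scaling or library size alone, which moved the median of all genes to -0.12 and -0.18, and also with a minimum of 10 counts in each library, with no filter or with the replicate block. DESeq2 called *Fcgr3* (adjusted p = 0.0424) but not *Itgam* (adjusted p = 0.120). *Mpeg1* differed by -0.14 (adjusted p = 0.763 in edgeR), a difference that was above 0 without shLuci culture replicate 3 (0.07) or shLuci in vivo replicate 1 (0.11). *Itgam* was also called without shLuci culture replicate 2 (adjusted p = 0.0152 in edgeR) and without shLuci in vivo replicate 3 (adjusted p = 0.0394 in edgeR), and *Siglech* without shLuci culture replicate 1 (adjusted p = 0.0483 in edgeR).

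The partners of the members did not all move with them. *Itgb2*, the chain that pairs with the *Itgam* product, had log2 fold changes of -0.02 (adjusted p = 0.955 in edgeR) in culture, with either sign when libraries were left out, and of -0.33 (adjusted p = 0.119 in edgeR) in vivo, where it was called with DESeq2 (adjusted p = 0.0419) and in edgeR with no filter on counts (adjusted p = 0.00266). *Fcer1g*, the signalling chain of *Fcgr3*, had 0.06 (adjusted p = 0.861 in edgeR) in culture, with either sign when libraries were left out, and 0.14 (adjusted p = 0.564 in edgeR) in vivo. *Tyrobp*, the adaptor of *Siglech*, fell in both settings, with log2 fold changes of -0.86 (SE 0.136, adjusted p = 0.00193 in edgeR) and -1.06 (SE 0.103, adjusted p = 0.000273 in edgeR). Of 8 tested partners, 1 was called higher and 3 lower in culture, and 1 higher and 1 lower in vivo.

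The members' own gene families were counted next. Of the other beta-2 integrin genes, *Itgax* (CD11c) fell in culture and in vivo with log2 fold changes of -2.25 (adjusted p = 0.00383 in edgeR) and -2.28 (adjusted p = 0.00173 in edgeR). *Itgal* (CD11a) had -1.49 (adjusted p = 6.20e-05 in edgeR) in culture, where 2 of 3 tested genes of the family were called, and *Itgad* -2.28 (adjusted p = 0.0287 in edgeR) in vivo, where 2 of 4 were called. *Fcgr2b*, the inhibitory Fc receptor, fell in both settings (log2 fold change -2.17 in culture and -0.97 in vivo, adjusted p = 0.000241 and 0.00773 in edgeR), while the high-affinity receptor *Fcgr1* rose in culture (0.91, adjusted p = 0.0226 in edgeR). These were the calls among 4 tested Fc receptor genes other than *Fcgr3* in each setting. Of the Siglec genes other than *Siglech*, 3 of 3 tested were lower in culture and 4 of 5 in vivo. *Cd33*, *Siglecf* and *Siglecg* were called in both settings, with log2 fold changes of -1.08, -2.16 and -1.19 in culture and of -2.13, -1.37 and -1.16 in vivo, and *Cd22*, of B cells, was called in vivo (-1.77). With single libraries left out, *Itgad* was called in 2 of 6 runs, *Cd22* in 1 of 6, *Siglecf* in vivo in 4 of 6 and *Fcgr1* in 2 of 6, with adjusted p values of at most 0.134, 0.0818, 0.0615 and 0.0958 in edgeR.

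Of the C-type lectin genes other than *Clec12a*, 5 of 8 tested were lower and 1 higher in culture, with *Clec4a1* at -3.62 and *Clec2d* at -1.56 among the former. In vivo, 1 of 11 was lower and 2 were higher. *Clec10a* was the higher one in culture (1.86) and the lower one in vivo (-2.63). Of 5 tested genes of the galectin list other than *Lgals3*, 0 were called in culture by edgeR (1 with the block), whereas *Lgals1* was called in vivo (-1.52, adjusted p = 0.000143 in edgeR). That list also held *Lgals3bp*, which encodes a galectin-binding protein and no galectin. Of the transglutaminase and clotting factor genes other than *F13a1*, 2 of 4 tested were higher in culture, *F5* (0.86) and *Tgm5* (1.65, with an adjusted p of 0.0736 in edgeR in 1 model of all 12 libraries), and 2 of 5 in vivo, *F5* (2.23) and *Tgm2* (1.66), and the block added 1 lower call in culture. The other pore-forming genes had too few counts in culture, and 0 of 2 tested were called in vivo by edgeR.

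Markers of monocytes and dendritic cells outside the members were counted in the same way. Of the monocyte and macrophage markers, 7 of 15 tested were lower and 2 higher in culture (median log2 fold change -0.37), and 8 of 17 were lower and 0 higher in vivo (median -1.05). In culture, *Cybb*, a subunit of the phagocyte oxidase, had -3.63, the chemokine receptor *Cx3cr1* -2.74 and the growth factor receptor *Csf1r* -1.82. In vivo, *Ms4a6c* had -1.70, the lysosomal *Cd68* -1.67, the protease *Ctss* -1.40 and *Csf1r* -1.28, the last with an adjusted p of 0.0520 in edgeR without shRad21 replicate 3. Of the conventional dendritic cell markers, 7 of 9 tested were lower and 1 higher in culture (median -1.12), and 4 of 12 were lower in vivo (median -1.02). *Ccr7*, a receptor that guides dendritic cells to lymph nodes, fell in both settings (-2.08 and -2.68), and *Flt3*, a growth factor receptor shared by dendritic cells and multipotent progenitors, had -1.61 in vivo.

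Plasmacytoid dendritic cell markers other than *Siglech* were counted last. In culture, 4 of 11 tested were lower, among them the nucleic acid sensor *Tlr9* (-2.65), and 1 was higher, the chemokine receptor *Ccr9* (2.49), with a median of -0.28. In vivo, 2 of 11 were lower, *Ly6d* (-2.07) and *Smim5* (-0.94), with a median of -0.72. The background for these counts was 8.06% called lower and 6.18% called higher of all genes in culture, and 5.32% and 5.65% in vivo. Because several markers are in more than 1 list (*Itgax* and *Clec10a*, for example), the counts of these lists overlap with those of the families.

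**Figure D5:**
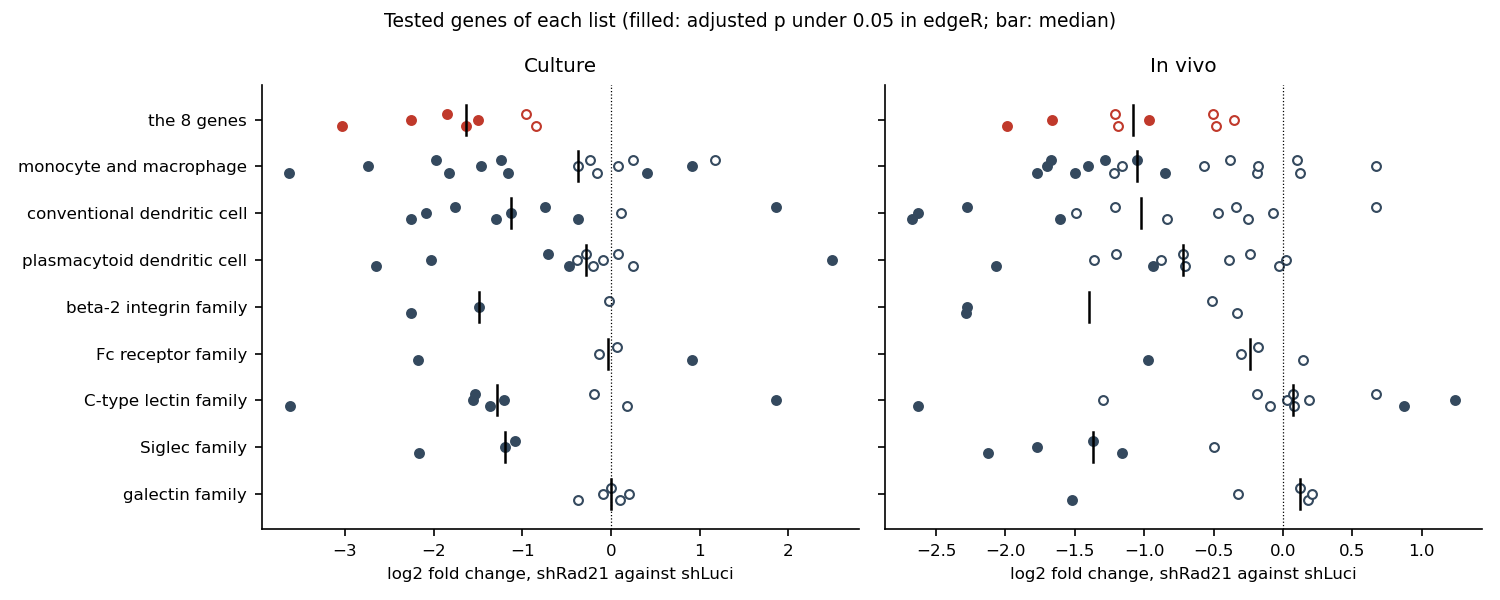
Log2 fold change of shRad21 against shLuci cells for the 8 genes and for the tested genes of each marker list and family, in culture and in vivo, with filled points for an adjusted p under 0.05 in edgeR and a bar for the median. The members have medians of -1.63 and -1.08, the conventional dendritic cell list -1.12 and -1.02, and the genes of the galectin list lie around 0 with *Lgals1* apart in vivo at -1.52.

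Markers of other cell types also differed between shLuci and shRad21 cells. The neutrophil granule genes, of a cell type that also carries *Itgam*, *Fcgr3* and *Clec12a*, summed to between 75.4 and 99.7 CPM in shLuci and between 35.4 and 44.3 CPM in shRad21 cells in culture, and to between 1726 and 2215 CPM and between 1223 and 1414 CPM in vivo. Of them, 3 of 4 tested were lower in culture and 2 of 11 in vivo, and *Ly6g*, which defines neutrophils, had 0 counts in the culture libraries, which allows up to 0.197 CPM, and at most 0.454 CPM in vivo. The B cell genes summed to between 26.9 and 27.5 CPM in shLuci and between 17.6 and 21.4 CPM in shRad21 cells in culture (1 of 2 tested lower), and to between 108 and 159 CPM and between 59.3 and 79.1 CPM in vivo (6 of 8 lower). The T cell genes summed to between 74.5 and 92.8 CPM in shLuci and between 27.7 and 30.6 CPM in shRad21 cells in vivo (1 of 2 tested lower), with *Cd3e* at no more than 0.133 CPM. B and T cells are known to carry *Cd52*. The megakaryocyte and platelet genes had 3 of 5 tested higher and 2 lower in culture and 4 of 6 higher in vivo, where their sums lay between 256 and 316 CPM in shLuci and between 589 and 732 CPM in shRad21 cells. Of the other lists, mast cell and basophil genes had 2 of 4 higher in culture and 2 of 6 in vivo, and erythroid genes had 0 of 2 called by edgeR in culture and 2 of 6 lower in vivo. NK cell genes had 1 of 2 lower in culture, and 1 of 4 lower and 1 higher in vivo. The part of these cell types in the differences of the members was not tested. Of the 10 stem and progenitor (LSK) genes, 4 were higher and 2 lower in culture, and 4 were higher and 3 lower in vivo. Among them, *Kit* was lower in shRad21 cells, with a log2 fold change of -1.42 in culture and of -0.42 in vivo (adjusted p = 1.53e-05 and 0.00659 in edgeR).

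Over the 12 libraries, the log2 CPM of the members correlated with each other with Pearson's r between 0.115 and 0.940 in 28 pairs, with a median of 0.723. The libraries share depth, kit and group, so these values describe the libraries and carry no p. *Clec12a* and *Cd52* formed the pair with the highest value, and also did so among the 6 libraries in vivo (r = 0.972). Among the 6 libraries in culture, the range was -0.293 to 0.974, with *Clec12a* and *Mpeg1* at the top.

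Over genes that averaged 1 or more on the log2 CPM scale, the 3 with the highest r to each member were named. *Siglecf* (r = 0.973), *Gatm* (0.957) and *Slc25a53* (0.956) were most like *Itgam*. *P2ry2* (0.983), *Gpr18* (0.982) and *Haao* (0.981) were most like *Cd52*, and *Kcnk12* (0.985), *Tmem121* (0.982) and *Ddx49* (0.977) most like *Clec12a*. For *F13a1* these were *Copz1* (0.986), *Anxa3* (0.968) and *Hp* (0.967), and for *Mpeg1* they were *Endod1* (0.939), *P2ry13* (0.895) and *Il18r1* (0.893). *Fcgr3* was most like *Tifa* (0.936), *Gm37549* (0.914) and *Btnl9* (0.904). *Lgals3* was most like *A630052C17Rik* (0.871), the member *Fcgr3* (0.842) and *Shisa5* (0.832), and *Siglech* most like *Zfp58* (0.925), *Klhl23* (0.892) and *Msantd3* (0.872). The values of *Siglech* rest on at most 29 counts in a library.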

How the data were processed

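RNA was sequenced from 12 libraries in 4 groups of 3, as single 51-cycle reads. Per the study's methods and the labels, the authors removed rRNA reads and low-quality bases, mapped the reads to GRCm38 with TopHat2 2.0.11 and counted them per gene with HTSeq-count 0.6.1. The deposited values are these raw counts, with no normalization. The annotation release and strand setting are not given in the sources used here. Library kits, sorted populations and lanes differed between culture and in vivo, so that differences between the settings, the interaction included, cannot be told apart from these.

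Groups and replicate numbers were taken from the labels. Genes were kept with filterByExpr (its defaults, a minimum of 10 counts scaled to library size in 3 libraries), scaled with TMM and tested with edgeR 4.0.16 in R 4.3.3 by the quasi-likelihood test, two-sided, with Benjamini-Hochberg adjustment over all genes and a threshold of 0.05. Knockdown was tested within each setting on 6 libraries, as in the authors' separate comparisons. Control cells and the interaction were tested on 12 libraries. CPM in the text uses TMM factors of all 12 libraries, and RPKM divides it by the merged exonic length of GENCODE M21. A standard error is the log2 fold change divided by the square root of F. Correlations used log2 CPM with a prior count of 2. Fits were also run on simulated counts that held no effect of the replicate number, and the outcome is not reported here. Promoter windows and motifs came from the RefSeq table and were searched with Python 3.11.15.

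Same-numbered shLuci and shRad21 libraries deviated together in culture (Pearson's r of deviations from the group means between 0.170 and 0.217 over genes in 3 of 3 pairs, and between -0.250 and 0.0441 for different numbers), so the number was also used as a block there. In vivo, r was between 0.0341 and 0.0575, and the numbers were not taken as pairs. The main tests, the list counts and the runs with a library left out did not use the number in either setting.

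The 8 genes and the marker lists were chosen with earlier results of these data known. The rule named the members in full, their partners, the called list genes with the largest log2 fold changes, markers at or near 0 and 3 genes most like each member. *Itgad*, *Fcgr1*, *Cd22*, *Lgals1*, *Ly6d* and *Smim5* were named because they were among few calls of their list. Alternatives were DESeq2 1.42.0, upper-quartile scaling, library size only, no filter, a minimum of 10 counts in each library, the replicate block, 1 model of all 12 libraries and each library left out. They were added after seeing the data for genes that are no members.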

Additional observations from a re-analysis of the deposited data

How the results depend on the processing

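The calls of the members in culture and those of *Clec12a* and *Cd52* in vivo held under DESeq2, both other scalings, both other filters, the replicate block and a single model of all libraries. Alternatives for genes that are no members were chosen after seeing the data. With no filter on counts, 2988 genes and 7 members were called in culture, with *Fcgr3* (adjusted p = 0.000302 in edgeR) and *Lgals3* (adjusted p = 0.00334 in edgeR) added, 2829 genes and 5 members were called in vivo, and 1409 genes and 3 members in the interaction. In culture, the standard errors of the tested members shrank without the filter, for *Itgam* from 0.289 to 0.136, so the added calls are no separate support. In the interaction, DESeq2 called 1294 genes and 1 member, and a minimum of 10 counts in every library called 1 member. For control cells, 5 members were called with upper-quartile scaling, library size only, a minimum of 10 counts or the replicate block, beside 12746, 12811, 10230 and 12653 genes, and 6 members beside 13770 genes without a filter.

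With 1 library left out, between 1352 and 2817 genes and between 3 and 7 members were called in culture. In vivo, these were between 951 and 1562 genes and between 2 and 4 members. In the interaction, they were between 492 and 845 genes and between 0 and 1 members. For control cells, between 3 and 4 members were called beside between 12180 and 12501 genes. Values near 0 changed sign with single libraries left out: *Itgb2* (-0.13 to 0.13) and *Fcer1g* (-0.17 to 0.21) in culture, *Mpeg1* for control cells (-0.28 to 0.11), and in the interaction *Lgals3* (-0.93 to 0.027), *Clec12a* (-0.26 to 0.32), *Siglech* (-0.79 to 0.94) and *Mpeg1* (-0.63 to 0.38). *Itgb2* in culture was 0.00396 with library size only and 0.00194 without a filter. The causes were not tested.

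The replicate block moved the genes called in culture from 2213 to 3186 and those called in vivo from 1749 to 1678, and among members it changed no other call within a setting than those of *Fcgr3* and *Lgals3* in culture. In culture, the standard errors of the tested members shrank with the block as well. For control cells the block added *Itgam* and *Fcgr3*. The counts of *Siglech*, at most 29 per library, limit what its values can show.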

Other observations

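Several genes of the lists differed between settings in their response to knockdown, by the interaction over 12 libraries. *Clec10a*, a galactose-binding lectin of macrophages and dendritic cells, rose in culture and fell in vivo, with a log2 difference of 4.50 between the settings (SE 0.458, adjusted p = 0.000107 in edgeR). *Ccr9*, which guides plasmacytoid dendritic cells to the gut, differed by 3.21 (SE 0.576, adjusted p = 0.00500 in edgeR), the protease gene *Ctss* by 1.66 (SE 0.275, adjusted p = 0.00285 in edgeR) and *Lgals1* by 1.64 (SE 0.226, adjusted p = 0.00102 in edgeR). In the other direction, *Cybb* differed by -3.43 (SE 0.618, adjusted p = 0.00500 in edgeR), *Tgm2* by -2.11 (SE 0.235, adjusted p = 0.000204 in edgeR) and *Clec2d* by -1.57 (SE 0.199, adjusted p = 0.000501 in edgeR). Of the tested monocyte and macrophage markers, 3 of 19 passed this test, and 1 of 12 in each of the dendritic cell lists did, beside 4.67% of all 17050 genes tested. Setting, kit, sorted population and lane cannot be told apart in these differences.

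Among control cells, monocyte markers were called between the settings in both directions, at shares near those of all genes. *Ly6c2*, which marks classical monocytes, had a log2 difference of -6.91 (culture minus in vivo, adjusted p = 4.36e-11 in edgeR), while *Cx3cr1*, which marks nonclassical monocytes, had 2.86 (adjusted p = 2.74e-06 in edgeR). The shLuci culture libraries held 21 counts of *Ly6c2* together (0.234 to 0.491 CPM), near the limit of detection, so that the size of its difference is uncertain. Of the 19 tested markers in this list, 7 were higher and 7 lower in culture, where 37.1% of all genes were called higher and 37.1% lower. Setting, kit, sorted population and lane cannot be told apart here either.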
